A study of Homo sapiens with 21 samples.

Results

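The 6 unstable mRNAs described here were studied as RNA targets of the proteins FUBP3, KHSRP and AGO2. They are JUN, KLF6 and MYC, which encode transcription factors, MCL1, which encodes a survival protein of the BCL2 family, VEGFA, which encodes a secreted growth factor of blood vessels, and CTNNB1, which encodes beta-catenin. The first 5 were chosen as mRNAs with AU-rich elements and CTNNB1 as a known KHSRP target. All clusters that the deposited lists assign to these gene names were used. They are 6 of 16944 gene names in the FUBP3, KHSRP and AGO2 libraries. They held 73, 79 and 48 clusters in FUBP3 at the low, middle and high dose of RNase I, and 59, 31 and 13 in KHSRP.

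An AU-rich element is a stretch of the 3' UTR, often built around the pentamer ATTTA, that marks many short-lived mRNAs of growth control and inflammation for decay. KHSRP is a KH-domain protein that binds such elements and brings deadenylases and the exosome to the mRNA, and it also binds some microRNA precursors. FUBP3 is a relative of KHSRP with KH domains of the same kind. AGO2 carries microRNAs, which lead it to 3' UTRs by pairing of their seed, bases 2 to 8.

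All libraries came from Flp-In T-REx 293 cells, a line of human embryonic kidney origin, with a stably integrated FLAG-HA tagged version of the protein under study. In PAR-CLIP the cells take up 4-thiouridine (100 uM for 8 to 12 hours in the FUBP3, KHSRP and AGO2 libraries used), ultraviolet light crosslinks the protein to the RNA at it, and the crosslinked base is read as a T-to-C change. In the fluorescent form of the assay, FUBP3 and KHSRP had 1 library each at 0.15, 0.5 and 1.5 U/ul RNase I, and AGO2 had 1 library each at 0.15 and 1.5 U/ul. In the radiolabelled form, FUBP3 and KHSRP had 1 library each with RNase T1 at 0.5 U/ul, and AGO2 had 2 libraries (A and B) with a urea gel and 2 without it, with RNase T1 at 1 U/ul. Per the labels, KHSRP cells were lysed in RIPA buffer with sonication and cells for cytoplasmic proteins in NP40 buffer, and no buffer is named for FUBP3, so protein and lysis cannot be told apart.

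Reads in clusters were 1683771, 1975646 and 810326 in FUBP3 from the low to the high dose, and 2172248, 905433 and 200210 in KHSRP. They were 179853 and 125960 in the T1 libraries of FUBP3 and KHSRP, 295889 and 335870 in fluorescent AGO2, 929424 and 608223 in AGO2 without the gel, and 183250 and 77572 with it. Of 5 markers of this type of line, 4 had clusters in the FUBP3 and KHSRP RNase I libraries, and none of 6 markers of leukocytes, hepatocytes and fibroblasts had any. Levels are given as reads per 100000 reads in clusters of the same library. They depend on the abundance of the mRNA as well as on binding, and in bulk libraries fewer cells with an mRNA and less of it per cell cannot be told apart. The lists hold clusters above a read minimum only, so a gene without one is given as having no cluster. Except for AGO2 with and without the gel, each condition was 1 library, so there is no replicate check, and the 95% intervals cover counting error only, since reads are not independent molecules.

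The stretch covered by the most FUBP3 and KHSRP RNase I libraries is shown for the 2 leading 3' UTR sites of each mRNA but MYC, because the comparison of the proteins turns on these sites. A site is a run of overlapping clusters of these 6 libraries, and sites were ordered by their mean share of reads. Each window is on the mRNA strand, 5′ to 3′, in hg38, and capitals mark TGTA, TATA and ATTTA.
JUN, site 1, minus strand, chr1:58781431-58781460: ctgcccagtgttgttTGTAaataagagatt
JUN, site 2, minus strand, chr1:58781681-58781710: actgcaatagagacTGTAgattgcttctgt
KLF6, site 1, minus strand, chr10:3777772-3777801: tatttgtgTGTAcagtatgTGTAtgtgtgt
KLF6, site 2, minus strand, chr10:3776590-3776619: caagattgtTATAtttcTGTAtgaaTGTAt
MCL1, site 1, minus strand, chr1:150576553-150576582: ttaggaacctgtttcttacagcttttctat
MCL1, site 2, minus strand, chr1:150575894-150575923: gcatctttggatttcagtcttgatgtttgt
VEGFA, site 1, plus strand, chr6:43786156-43786185: TATAtgtttaTGTATATAtgtgattctgat
VEGFA, site 2, plus strand, chr6:43785842-43785863: aagagtagggttttttttcagt
CTNNB1, site 1, plus strand, chr3:41240156-41240185: aattgTGTAgccttttTGTATAaaatagac
CTNNB1, site 2, plus strand, chr3:41240344-41240373: tgccttttatcccaaagttgtTGTAacctg

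Of these 10 windows, 7 hold TGTA and none holds ATTTA. With the third site of each mRNA, TGTA was in 8 of 15 windows and ATTTA again in none. The windows cover only a part of the longer sites, however. JUN site 1 (266 nt) and MCL1 site 1 (350 nt) each held ATTTA outside the window shown. The leading MYC site (168 nt), for which no window is shown, held it too. Both MCL1 windows hold none of the motifs. The KLF6 site 2 window was covered by 2 of the 6 libraries and the VEGFA site 1 window by 3.

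The AGO2 clusters of the same mRNAs are shown with the microRNAs whose seed they match, as these are the positions where AGO2 and the microRNAs can be compared. Capitals mark the match to the seed in the clusters and the seed in the microRNAs. The mature sequences are RefSeq's (GRCh38.p14).
VEGFA, AGO2 site 1, plus strand, chr6:43784829-43784858: tatttttctTGCTGCTaaatcaccgagccc
hsa-miR-16-5p: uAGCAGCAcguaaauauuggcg
VEGFA, AGO2 site 2, plus strand, chr6:43784727-43784750: actctgcgcagaGCACTTTgggtc
hsa-miR-17-5p: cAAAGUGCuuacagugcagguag
MCL1, AGO2 site, minus strand, chr1:150576027-150576056: agtctaaccaTGGTGCTattattaggcttg
hsa-miR-29a-3p: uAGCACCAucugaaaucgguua
KLF6, AGO2 site, minus strand, chr10:3778879-3778908: ctggtgcagctattaaatGTGCAATgtgtc
hsa-miR-92a-3p: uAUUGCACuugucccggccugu

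Most reads of the 6 mRNAs lay in 3' UTRs in the RNase I libraries of FUBP3 and KHSRP and in AGO2. Over the RNase I libraries, 89.4% of the FUBP3 reads of these mRNAs (4862 of 5440, Wilson interval 88.5 to 90.2%) were in 3' UTR clusters, against 35.9% of all reads in clusters. In KHSRP the share was 80.2% (1535 of 1913, 78.4 to 82.0%), against 11.9% of all reads in clusters. All reads in clusters include those of clusters without a gene name. Pooled, the 6 mRNAs thus had most of their KHSRP reads in 3' UTRs, whereas most of all KHSRP reads in clusters lay elsewhere. The 6 mRNAs were not matched to all genes by gene length or introns. The part of gene structure in these contrasts was not tested. By dose, the share was 88.5, 91.3 and 84.8% in FUBP3 and 76.8, 86.1 and 83.6% in KHSRP from the low to the high dose. In fluorescent AGO2 it was 77.8% (119 of 153, 70.6 to 83.6%), against 3.19% over all reads in clusters, and in radiolabelled AGO2 81.2% (2064 of 2543), against 28.5%. Counted by clusters, the contrast in fluorescent AGO2 was much smaller. There 75% of the members' clusters were in 3' UTRs, against 38.7 and 29.8% of all clusters at the low and high doses.

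CTNNB1 had most of its remaining reads in introns. Its intron clusters held 175, 188 and 106 reads in FUBP3 and 178, 59 and 14 in KHSRP from the low to the high dose. Its 3' UTR share was 58.2, 73.8 and 67.1% in FUBP3, and 25.9, 61.2 and 52.5% in KHSRP. The low-dose KHSRP library was the only one of the 6 in which CTNNB1 had more intron reads than 3' UTR reads.

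The ratio of FUBP3 to KHSRP differed between the 6 mRNAs and with the dose of RNase I. At 0.15 U/ul, 4 of them (KLF6, JUN, MCL1 and CTNNB1) had a share 2-fold or more higher in FUBP3, while MYC and VEGFA had intervals that held 0 on the log2 scale. At 1.5 U/ul, CTNNB1 alone had an interval above 0, and MYC and KLF6 had intervals below it. The FUBP3 reads there came from only 2 distinct sequences for MYC and 5 for KLF6. With clusters of at least 3 distinct sequences neither had FUBP3 reads at that dose, so neither had a ratio. These directions are for shares of all reads in clusters, and several of them flip when only 3' UTR reads are counted, as given for each mRNA.

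JUN (chr1:58780791-58784047, minus strand, GRCh38.p14) encodes a subunit of the AP-1 transcription factor. Its level was 44.5, 44.4 and 16.2 reads per 100000 in FUBP3 (749, 877 and 131 reads) and 15.2, 15.4 and 18.5 in KHSRP (330, 139 and 37 reads) from the low to the high dose. The KHSRP intervals at the 3 doses overlapped, and the FUBP3 interval at the high dose lay below both others. The log2 ratio of FUBP3 over KHSRP was 1.55 (1.36 to 1.74), 1.53 (1.27 to 1.80) and −0.19 (−0.73 to 0.37) over all reads in clusters, and it was −0.081, 0.047 and −1.75 over 3' UTR reads alone. In the T1 libraries JUN had 45.0 reads per 100000 in FUBP3 and 10.3 in KHSRP.

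KLF6 (chr10:3775996-3785209, minus strand) encodes a zinc-finger transcription factor of the Krüppel-like family. It had 7.01, 6.43 and 3.83 reads per 100000 in FUBP3 (118, 127 and 31 reads) and 2.26, 2.65 and 7.99 in KHSRP (49, 24 and 16 reads). By these shares FUBP3 was the higher at the low and middle doses and KHSRP at the high dose. The high-dose reads came from only 5 distinct sequences in FUBP3 and 4 in KHSRP. The log2 ratio was 1.64 (1.14 to 2.15), 1.28 (0.64 to 1.97) and −1.06 (−1.98 to −0.094), and over 3' UTR reads it was 0.045, 0.13 and −2.08. With T1, KLF6 had 7 reads in FUBP3 and no cluster in KHSRP.

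MYC (chr8:127735434-127742951, plus strand) encodes a transcription factor of cell growth. It had 7.07, 11.6 and 2.71 reads per 100000 in FUBP3 (119, 229 and 22 reads) and 5.71, 15.7 and 12.5 in KHSRP (124, 142 and 25 reads). Both proteins had their highest share at the middle dose, and the high-dose FUBP3 library lay below the other 5. Its reads came from only 2 distinct sequences. The log2 ratio was 0.31 (−0.067 to 0.68), −0.44 (−0.74 to −0.12) and −2.20 (−3.10 to −1.32), and −1.35, −1.99 and −3.76 over 3' UTR reads. MYC had no cluster in either T1 library.

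MCL1 (chr1:150574558-150579610, minus strand) encodes a protein that blocks apoptosis and is itself short-lived. It had 25.8, 28.1 and 18.9 reads per 100000 in FUBP3 (435, 556 and 153 reads) and 12.3, 12.8 and 13.99 in KHSRP (268, 116 and 28 reads). KHSRP differed little between doses and the FUBP3 levels were above it at the low and middle doses, with overlapping intervals at the high dose. The log2 ratio was 1.07 (0.84 to 1.29), 1.14 (0.84 to 1.44) and 0.43 (−0.16 to 1.07) over all reads, but −0.55, −0.42 and −1.24 over 3' UTR reads, and the value at the high dose was −0.40 when distinct sequences were counted. With T1, MCL1 had 38.9 reads per 100000 in FUBP3 and 23.0 in KHSRP.

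VEGFA (chr6:43770211-43786487, plus strand) has a long AU-rich 3' UTR known for regulation by RNA-binding proteins in low oxygen. It had 3.98, 5.31 and 13.6 reads per 100000 in FUBP3 (67, 105 and 110 reads) and 3.73 (81 reads) in KHSRP at the low dose, with no KHSRP cluster at the other doses. It was the only one of the 6 mRNAs with its highest FUBP3 share at the high dose, and its interval there lay above those at the low and middle doses. At the low-dose share, KHSRP would have held 33.8 reads at the middle dose and 7.47 at the high dose, so the absence at the high dose is near the read minimum of the list. The log2 ratio at the low dose was 0.094 (−0.40 to 0.58), and −1.48 over 3' UTR reads. With T1, VEGFA had 6 reads in FUBP3 and no cluster in KHSRP.

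CTNNB1 (chr3:41199505-41240443, plus strand) encodes beta-catenin, the transducer of Wnt signals and a part of cell junctions. It had 29.1, 40.4 and 39.7 reads per 100000 in FUBP3 (490, 799 and 322 reads) and 14.5, 19.7 and 20.0 in KHSRP (316, 178 and 40 reads). Both proteins were lowest at the low dose, and the ratio hardly moved. It was 1.00 (0.79 to 1.21), 1.04 (0.80 to 1.28) and 0.99 (0.51 to 1.504) over all reads, but 0.51, −0.25 and −0.22 over 3' UTR reads. With T1, CTNNB1 had 53.4 reads per 100000 in FUBP3 and 3.97 (5 reads) in KHSRP.

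**Figure D1:**
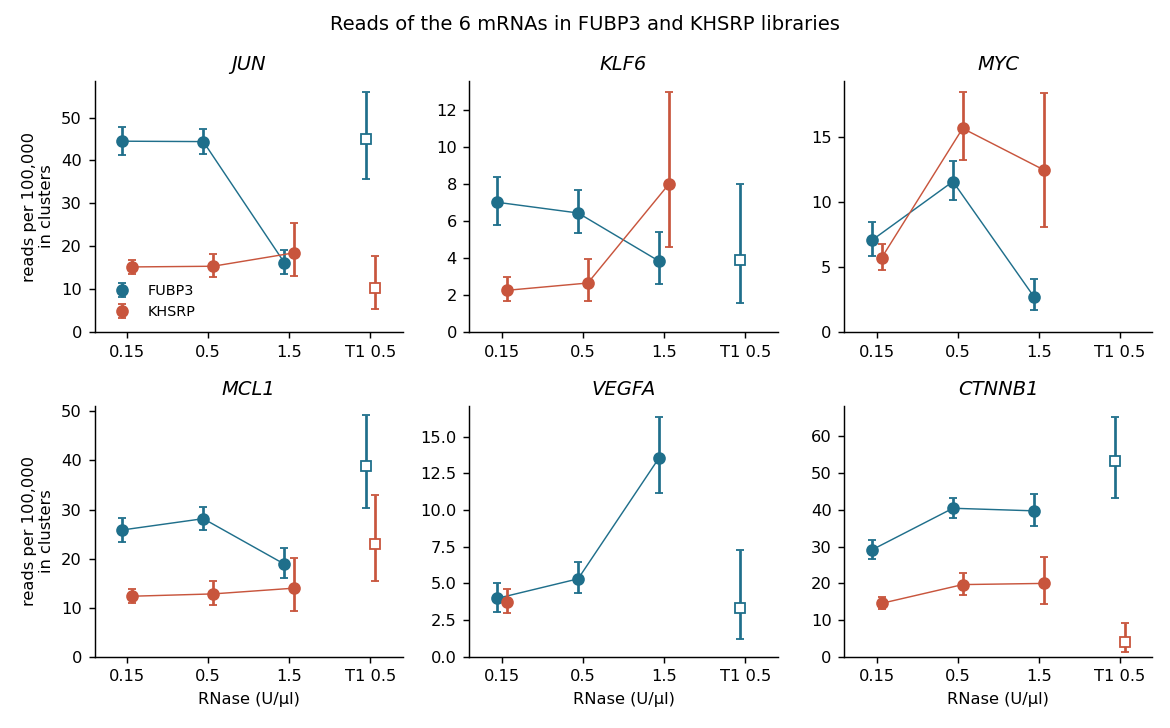
Reads per 100000 reads in clusters of each of the 6 mRNAs (linear axis from 0) against the RNase dose in U/ul for FUBP3 and KHSRP; filled circles are RNase I libraries joined by a line, open squares the RNase T1 libraries, and bars are 95% exact binomial intervals. Each point is 1 library, a missing point is a gene with no cluster, and FUBP3 reaches 44.5 for JUN at 0.15 U/ul but 16.2 at 1.5 U/ul, where KHSRP has 18.5.

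Against all genes, KLF6, JUN, MCL1 and CTNNB1 stood on the FUBP3 side at the low and middle doses, VEGFA at the median at the low dose, and MYC below the median at the middle dose. Over the 3563 genes that reached 10 reads in every RNase I library of FUBP3 and KHSRP, the median log2 ratio was 0.094, 0.090 and −0.21 from the low to the high dose. The members' median was 1.03 (6 mRNAs), 1.14 (5) and −0.19 (5). At the low dose 89.0% of genes had a lower ratio than KLF6, 87.3% than JUN, 77.8% than MCL1, 76.6% than CTNNB1, 56.8% than MYC and 50.0% than VEGFA. At the middle dose it was 89.4% for JUN, 84.9% for KLF6, 81.6% for MCL1, 79.1% for CTNNB1 and 32.8% for MYC. VEGFA, with no KHSRP cluster, is left out at the middle and high doses. At the high dose these shares were 88.3% for CTNNB1, 73.3% for MCL1, 50.3% for JUN, 20.5% for KLF6 and 3.59% for MYC. CTNNB1 thus moved up among all genes with dose while KLF6, JUN and MYC moved down.

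Being 2-fold or more higher in FUBP3 at all 3 doses was met by 176 of the 3563 genes (4.94%), and 242 (6.79%) were 2-fold or more higher in KHSRP. None of the 5 members with enough reads (all but VEGFA) met either. CTNNB1 came nearest, with 2.00-fold, 2.06-fold and 1.99-fold. MCL1 and CTNNB1, 2 of 5, were above 0 at all doses, as were 27.1% of all genes. Counting distinct sequences in place of reads, the split over all genes was 28 on the FUBP3 side against 178 on the KHSRP side, and over 3' UTR reads 2 against 82, with MYC among the latter. With clusters of at least 3 distinct sequences it was 78 against 166, with CTNNB1 (1.53, 1.54 and 2.41) among the former, with at least 50 reads 5 against 140, and with no read minimum 408 against 270.

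The scale matters because KHSRP had few reads in 3' UTRs. Over 3' UTR reads alone, the median over all genes was −0.16, −0.36 and −1.07, and the members' median was −0.32, −0.25 and −1.75. On that scale the members' median was close to that of all genes at the low and middle doses and below it at the high dose. MYC was below the median of all genes at all 3 doses and CTNNB1 above it.

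**Figure D2:**
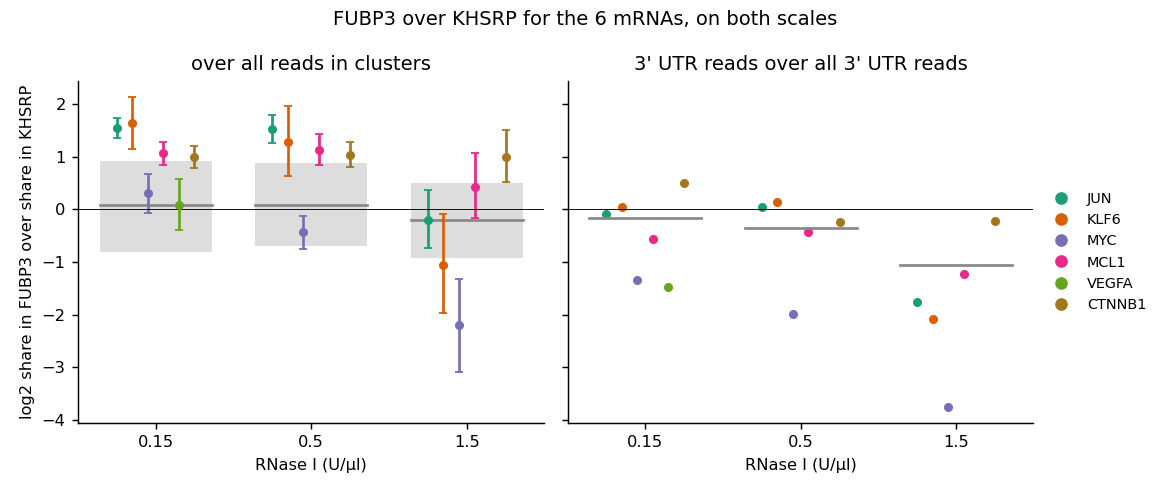
Log2 ratio of a gene's share in FUBP3 over its share in KHSRP against the RNase I dose in U/ul, over all reads in clusters (left) and over 3' UTR reads (right). Points are the 6 mRNAs, bars 95% exact binomial intervals, grey boxes the quartiles and grey lines the median of all genes; MYC goes from 0.31 at 0.15 U/ul to −2.20 at 1.5 U/ul on the left, and 4 mRNAs near 1 or above at the low dose on the left lie between −0.55 and 0.51 on the right.

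The 3' UTR clusters of the 6 mRNAs in the RNase I libraries of FUBP3 and KHSRP merged into 78 sites. Of these, 25 held clusters of both proteins, 46 of FUBP3 alone and 7 of KHSRP alone, in libraries where KHSRP had fewer reads at the middle and high doses. Only 3 sites, 1 each in MCL1, MYC and JUN, held a cluster in all 6 libraries. The mRNAs differed in how much was shared: 7 of 12 sites in JUN and 11 of 22 in MCL1 held both proteins, but 1 of 18 in KLF6 and 1 of 10 in VEGFA. The count was 3 of 11 in CTNNB1 and 2 of 5 in MYC.

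JUN had 1 dominant site. Its site 1 (chr1:58781323-58781588) held 482, 683 and 85 reads in FUBP3 and 265, 93 and 32 in KHSRP from the low to the high dose. These were 64.4 to 78.5% of the 3' UTR reads of JUN in FUBP3 and 71.0 to 86.5% in KHSRP. The T1 libraries added 63 reads in FUBP3 and 13 in KHSRP there. The window shown for it holds TGTA beside a run of A and T.

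MCL1 spread over the most sites. Its site 1 (chr1:150576413-150576762) held 183, 167 and 79 reads in FUBP3 and 157, 60 and 23 in KHSRP. The MYC site in all 6 libraries held 88, 177 and 10 reads in FUBP3 and 117, 142 and 25 in KHSRP. In that site the high-dose FUBP3 library, the deeper of the high-dose pair, held fewer reads than the KHSRP library.

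In KLF6 the proteins had their most reads on different sites. Its site 1 (chr10:3777754-3777813), with TGTA repeated in the window shown, held 24, 18 and 11 reads in KHSRP but 0, 18 and 0 in FUBP3. Its site 2 (chr10:3776571-3776647) held 79 and 57 reads in FUBP3 at the low and middle doses, none at the high dose, and no KHSRP cluster. VEGFA site 1 (chr6:43786128-43786245), with TGTATATA in its window, held 63 and 53 reads in FUBP3 at the middle and high doses, none at the low dose, and 53 in KHSRP at the low dose.

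The leading CTNNB1 site changed with dose in both proteins. Site 1 (chr3:41240016-41240223) held 21, 403 and 121 reads in FUBP3 and 0, 96 and 14 in KHSRP from the low to the high dose. Site 2 (chr3:41240252-41240391), nearer the 3' end, held 200, 70 and 0 reads in FUBP3 and 26, 0 and 7 in KHSRP. In KHSRP at the low dose the leading site was another one (chr3:41239509-41239599), with 56 reads, or 68.3% of the 3' UTR reads, and this site held 23, 16 and 0 reads in FUBP3 and 13 and 0 in KHSRP at the middle and high doses. Between sites 1 and 2, both proteins had more reads in site 2 at the low dose and in site 1 at the middle dose. In FUBP3 T1, site 1 held 80 reads and site 2 held 11. A further site (chr3:41239415-41239450) held 67 reads in the high-dose FUBP3 library alone.

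**Figure D3:**
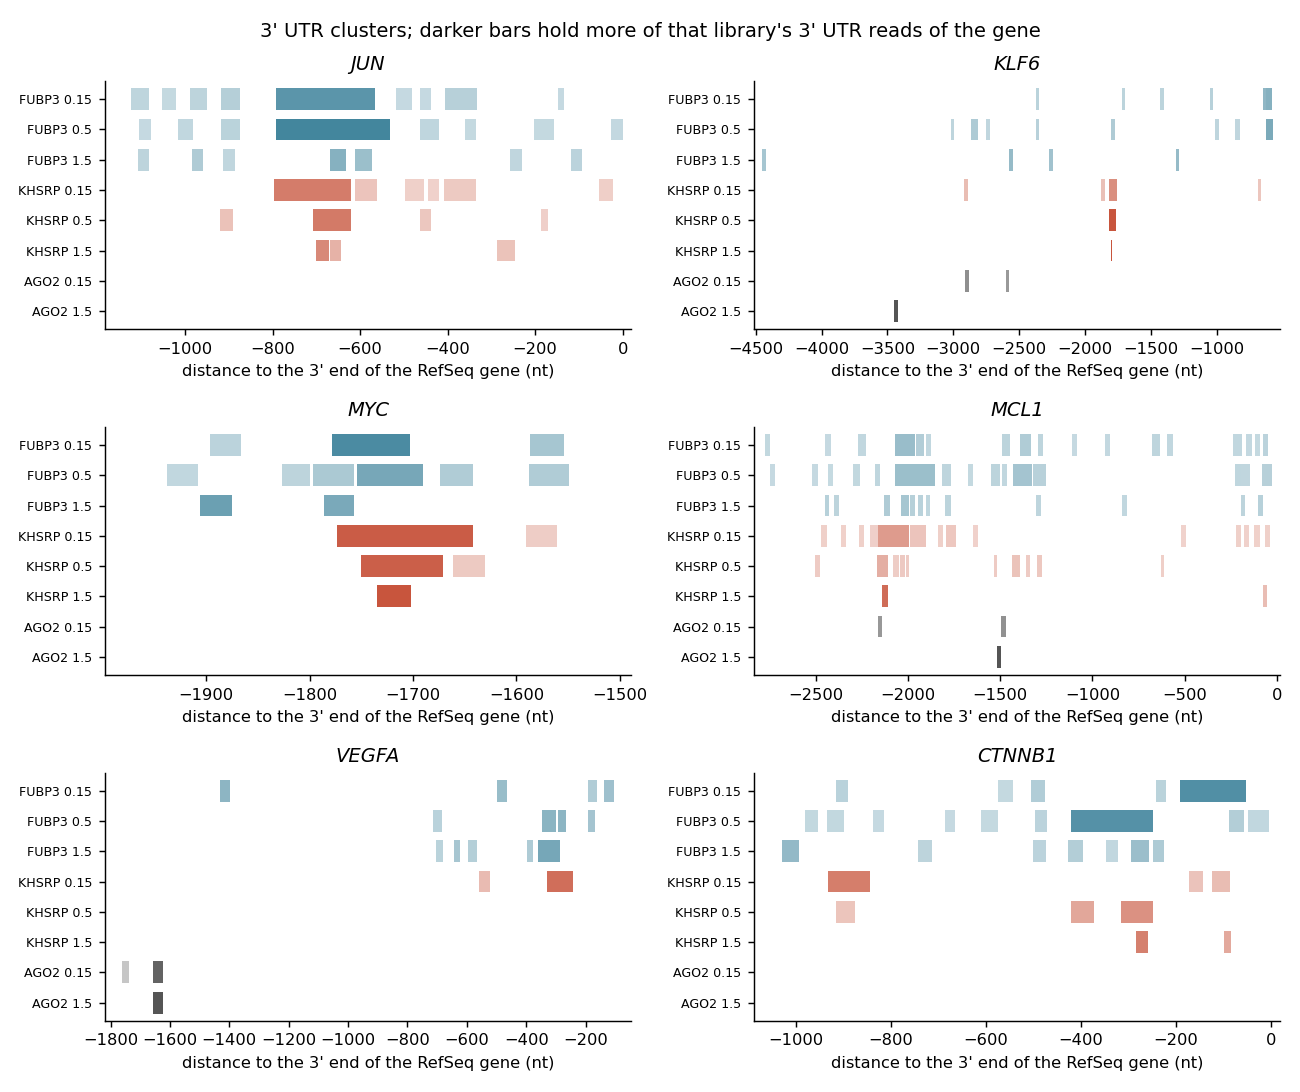
Position of each 3' UTR cluster of the 6 mRNAs, as distance in nt to the 3' end of the RefSeq gene, in the RNase I libraries (rows, dose in U/ul) of FUBP3 (blue), KHSRP (red) and AGO2 (grey). Darker bars hold a larger share of that library's 3' UTR reads of the gene; JUN has a block shared by both proteins in all 6 libraries, and the dark block of CTNNB1 in FUBP3 lies nearer the 3' end at 0.15 U/ul than at 0.5 U/ul.

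At the same dose, a larger share of the clusters of these mRNAs overlapped a cluster of the other protein than of all 3' UTR clusters. Of the FUBP3 clusters, 17 of 44 (38.6%, Wilson interval 25.7 to 53.4%), 15 of 50 (30.0%, 19.1 to 43.8%) and 5 of 37 (13.5%, 5.91 to 28.0%) overlapped KHSRP from the low to the high dose, against 20.2, 11.0 and 4.17% of all FUBP3 3' UTR clusters. Of the KHSRP clusters, 18 of 31 (58.1%, 40.8 to 73.6%), 19 of 20 (95%, 76.4 to 99.1%) and 5 of 9 (55.6%, 26.7 to 81.1%) overlapped FUBP3, against 39.3, 45.8 and 28.0%. Of the 6 intervals, 5 lay above the general share, and the KHSRP interval at the high dose held it. With clusters of at least 3 distinct sequences, the middle-dose intervals alone lay above, and KHSRP at the high dose was at 33.3% against 39.7%. With an overlap of 50% of the shorter cluster, the FUBP3 interval at the high dose (2.80 to 21.3%, against 3.21%) and the KHSRP interval at the low dose (32.0 to 65.2%, against 33.0%) also held the general share. These intervals treat clusters as independent, and clusters of 1 mRNA share its abundance, whose part in the overlap was not tested.

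**Figure D4:**
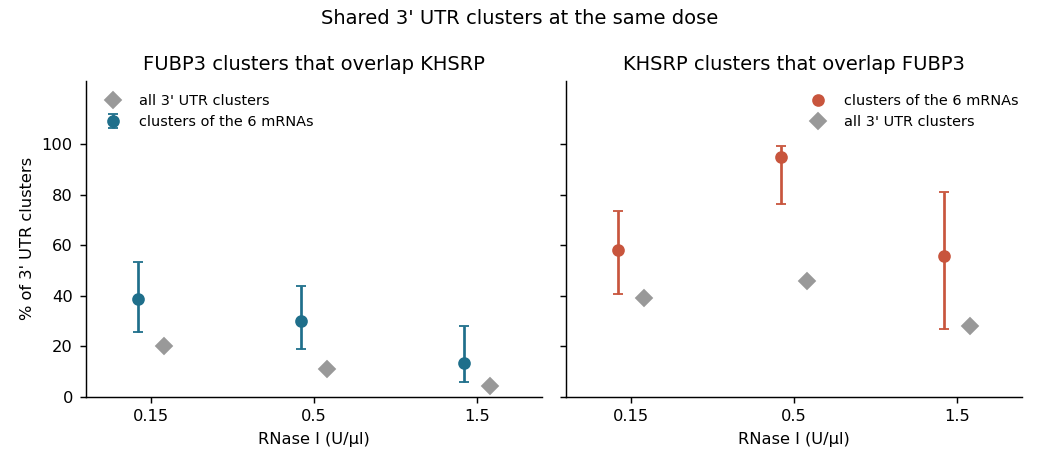
Percent of 3' UTR clusters that overlap a cluster of the other protein at the same RNase I dose (U/ul), for FUBP3 clusters (left) and KHSRP clusters (right). Circles are clusters of the 6 mRNAs with 95% Wilson intervals and diamonds all 3' UTR clusters of the library; the circle of KHSRP at 0.5 U/ul stands at 95% against 45.8%.

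The pentamer ATTTA, searched in the deposited cluster sequence on the mRNA strand, was in a minority of the clusters but in the main ones of MYC. In FUBP3, 23 of 131 member 3' UTR clusters held it (17.6%, Wilson interval 12.0 to 25%), against 11.7% of all 3' UTR clusters of these libraries. In KHSRP 6 of 60 did (10.0%, 4.66 to 20.1%), against 13.7%. The FUBP3 interval lay just above the general share and the KHSRP interval held it. Both intervals treat clusters as independent, although a position with clusters at several doses was counted at each. The FUBP3 share was 14.5% when only clusters of at least 3 distinct sequences were used. By dose it was then 7.14, 25 and 0%, against 15.6, 15.4 and 12.9% of all such 3' UTR clusters. Without that minimum, among 3' UTR clusters of the members' lengths the share was 15.0, 14.9 and 10.4% in FUBP3 from the low to the high dose. These values lay within the members' intervals at each dose (18.2, 22.0 and 10.8%). By reads over the 3 doses, clusters with ATTTA held 68.1% of the 3' UTR reads of MYC in FUBP3 and 85.2% in KHSRP. They held 39.8 and 2.85% for JUN, 21.3 and 31.7% for MCL1, 27.0% and none for VEGFA, and 14.1% and none for KLF6. The JUN value in FUBP3 came almost wholly from the middle-dose cluster of 683 reads, 532 to 793 nt from the gene end. The low-dose FUBP3 cluster of 482 reads there, 565 to 793 nt from the end, held no ATTTA. The JUN values thus depend on where a long cluster ends. CTNNB1 had 0.458% in FUBP3 and none in KHSRP. Over sites, 18 of 78 held ATTTA, the leading sites of MYC, JUN and MCL1 among them. TGTA was in 34.1, 36.0 and 37.8% of the members' FUBP3 clusters (40.0, 41.6 and 32.6% of all FUBP3 3' UTR clusters of the members' lengths) and in 41.9, 35.0 and 66.7% of their KHSRP clusters (51.1, 51.0 and 34.7%) from the low to the high dose.

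Other genes of the same pathways were taken from lists chosen with results of these data known. Of 50 other AU-rich mRNAs, 44 had reads and 10 had enough to be measured, with median log2 ratios of 1.71, 1.43 and 0.26 over all reads from the low to the high dose. CCND1, which encodes cyclin D1, was the 1 of 10 that was 2-fold higher in FUBP3 at all doses (2.28, 1.11 and 1.149), and none was so in KHSRP. HIF1A, which encodes the oxygen-regulated subunit of HIF-1, had 2.39, 1.38 and −0.17, the cyclin gene CCND2 2.68, 3.73 and 0.44, and the caspase inhibitor gene XIAP 0.72, 1.19 and 1.54. The ratio of HIF1A and CCND2 was lowest at the high dose, as in JUN, KLF6, MYC and MCL1. So was the median over all genes.

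The mRNAs of factors that act in AU-rich decay had medians on the other side. Of 39 such genes 22 were measured, with medians of −0.63, −0.62 and −0.88, and 12 were below 0 and 6 above 0 at all doses. Of the 22, 6 were 2-fold higher in KHSRP at all doses, which 6.79% of all genes were, and none in FUBP3. ZFP36L2, whose protein binds AU-rich elements and promotes decay, was among those above 0 (2.51, 1.503 and 0.85). The 6 called higher in KHSRP were TIA1, EXOSC9, PNPT1, TIAL1, HNRNPA1 and CNOT1. TIAL1, an RNA-binding protein of stress granules, had −1.87, −2.10 and −1.48, and HNRNPA1, a splicing factor, had −1.48, −1.32 and −2.20. CNOT1, the scaffold of the CCR4-NOT deadenylase, had −1.89, −1.61 and −1.65. CNOT2, another subunit of that complex, had −1.79, −1.71 and −0.95. CNOT1 and TIAL1 had at most 2.57% of their KHSRP reads in 3' UTRs, whereas HNRNPA1 had 69.6, 63.8 and 58.0%.

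In the Wnt and beta-catenin list, 18 of 41 genes were measured, with medians of 0.79, 0.65 and 0.10. FZD3, TCF7L2 and CCND1, which is also in the AU-rich list, were 2-fold higher in FUBP3 at all doses, and TNKS2 was so in KHSRP. GSK3B, the kinase that marks beta-catenin for decay, had 0.77, 0.21 and 0.16, and CSNK1A1, the kinase that primes it, had −0.23, −0.53 and −0.55. The tankyrase genes TNKS (−0.76, −1.03 and −0.66) and TNKS2 (−1.73, −2.08 and −1.30) were higher in KHSRP at each dose, whereas CTNNB1 itself was higher in FUBP3 over all reads.

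By the distance between log2 shares over the 6 RNase I libraries, each centred on its own mean, the genes nearest to the members among 3558 were EXOC6B (0.144) and C15orf41 (0.300) for CTNNB1 and CDH2 (0.264) and GPC6 (0.343) for MCL1. They were ARL6IP6 (0.223) and UBL3 (0.346) for JUN, EIF4A3 (0.225) and MAP3K13 (0.359) for KLF6, and FAM126B (0.424) and BBS7 (0.541) for MYC. The median distance of all genes was 1.84 for CTNNB1, 1.75 for MCL1, 2.13 for JUN, 2.04 for KLF6 and 2.46 for MYC. No other AU-rich mRNA of the list was among these nearest genes, but only 10 of the 50 had enough reads to be compared. Little can therefore be read from their absence. CDH2 is in the Wnt and beta-catenin list.

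AGO2 had clusters on all 6 mRNAs, but only 5 of them in the fluorescent library at 0.15 U/ul and 3 at 1.5 U/ul. AGO2 site 1 of VEGFA, which matches the seed of miR-15a, miR-15b and miR-16, held 40 and 31 reads in fluorescent AGO2 at the low and high doses. The same sequence held 346 and 275 reads in the radiolabelled libraries that skipped the gel, against 53 and 25 in the others, so it was found in all 6 AGO2 libraries. The seed match TGCTGCT was in 7.45 and 6.07% of all 3' UTR clusters of the fluorescent libraries.

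MCL1 had its AGO2 site in 4 of the 6 libraries, with 10 reads in the fluorescent library at 0.15 U/ul, 149 in library A without the gel, and 22 and 12 in A and B with it. A cluster of 6 reads at 1.5 U/ul touched it by 1 base and held no listed seed match. The site matches the seed of miR-29a and miR-29b, which 1.38 and 0.706% of all fluorescent 3' UTR clusters did. The VEGFA site 2 (miR-17 family, 5 reads) and the KLF6 site (miR-25, miR-32 and miR-92a, 7 reads) were each near the read minimum. Over the listed seeds, 4 of 6 member 3' UTR clusters at 0.15 U/ul held a match (38.1% of all) and 1 of 3 at 1.5 U/ul (32.3% of all). In the radiolabelled libraries it was 3 of 48 (14.8% of all) and 3 of 30 (19.8%) without the gel, and 3 of 17 (25.5%) and 4 of 6 (38.3%) with it, so the members' share was below that of all clusters in 3 of the 4. JUN had no cluster in fluorescent AGO2, MYC had 1 in its 5' UTR at 0.15 U/ul (19 reads), and CTNNB1 had 1 in its coding sequence there (7 reads).

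AGO2 site 1 of VEGFA lay 191 nt from the nearest FUBP3 site and 1065 nt from the nearest KHSRP site. Other AGO2 clusters of VEGFA did fall on FUBP3 or KHSRP sites. By shared sequence, 3 of its 10 sites held radiolabelled AGO2 clusters. A FUBP3 site (chr6:43786294-43786326) held 22 AGO2 reads in library B without the gel, and 11 and 9 in A and B with it. Another (chr6:43785772-43785806) held 39 in library A without the gel. Of the 6 fluorescent AGO2 3' UTR clusters of the members at 0.15 U/ul, 2 overlapped FUBP3 and 2 overlapped KHSRP, and at 1.5 U/ul 1 of 3 overlapped each. Over all 3' UTR clusters of AGO2 the shares were 53.0 and 48.2% with FUBP3 and 25.6 and 24.2% with KHSRP.

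Levels in AGO2 with and without the urea gel were compared by edgeR's quasi-likelihood test over 1121 genes, of which 3 (0.268%) passed an adjusted p of 0.05 and 149 had an unadjusted p below it. None of the 4 tested members passed. MCL1 had 46.5 and 28.6 reads per 100000 when the gel was skipped, against 22.4 and 15.5 when it was run (libraries A and B). Its log2 difference was 0.93 ± 0.42 (SE, n = 2 against 2, edgeR adjusted p = 0.386). VEGFA had 47.0 and 56.7 in the libraries that skipped the gel, against 40.4 and 43.8, and a log2 difference of 0.31 ± 0.29 (edgeR adjusted p = 0.657).

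KLF6 had 15.1 and 14.8 reads per 100000 when the gel was skipped, against 15.3 and 10.3, and JUN had 12.8 and 9.04 against 10.9 and 14.2. The groups overlapped for both mRNAs, with edgeR adjusted p = 0.909 for each. MYC (5.49 and 8.22 without the gel, 10.4 with it) and CTNNB1 (23.3 and 24.2, and 21.3) had no cluster in library B with the gel and were not tested. CTNNB1 differed from the others by its coding sequence, which held 162 of its reads in library A and 147 in library B without the gel, against 45 reads in 3' UTR clusters in A and none in B. In fluorescent AGO2, in which 3.19% of all reads in clusters lay in 3' UTRs, VEGFA had 15.2 and 9.23, MCL1 6.42 and 4.17, and KLF6 4.39 and 1.49 reads per 100000 at the low and high doses.

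**Figure D5:**
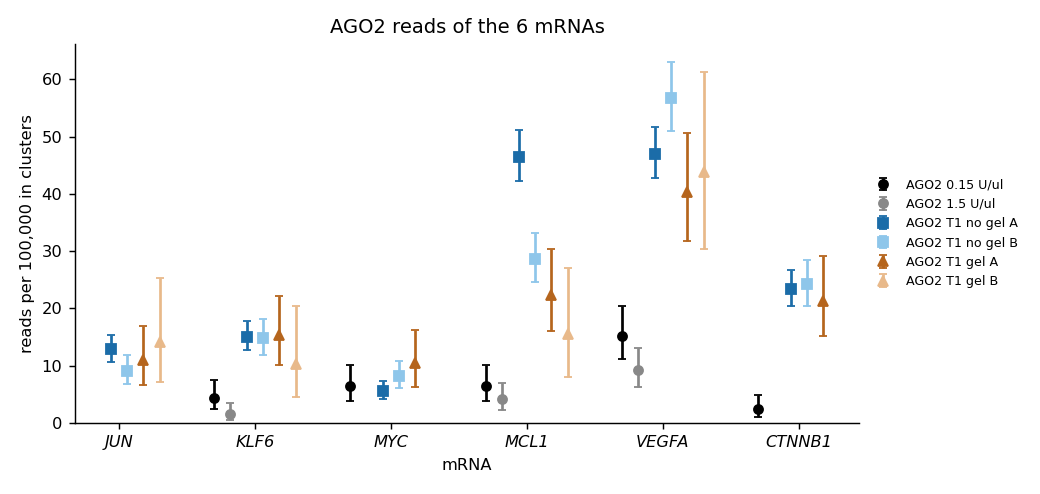
Reads per 100000 reads in clusters (linear axis from 0) of the 6 mRNAs in the 6 AGO2 libraries: fluorescent at 0.15 and 1.5 U/ul RNase I, and radiolabelled with RNase T1 without and with the urea gel (A and B); bars are 95% exact binomial intervals and a missing point is a gene with no cluster. VEGFA lies between 40.4 and 56.7 in the 4 radiolabelled libraries, and MCL1 between 15.5 and 46.5.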

How the data were processed

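Clusters of overlapping reads were deposited by the authors as lists with position, sequence, gene name, region class, read counts, counts of distinct sequences and the T-to-C fraction. Read counts per cluster are raw counts, and the T-to-C fraction is the share of reads with the change, per the file headers. Per the submitters' processing notes, bcl2fastq 2.20.0, cutadapt 1.15 and the build hg38 were used, while the aligner and cluster caller are not given in the sources used here. Of 21 samples, 17 had files here, and 4 AGO2 samples were not analysed here. The AGO2 libraries with and without the gel did not match hg38 positions, so no coordinates are printed for them. Most clusters of the T1 FUBP3 and KHSRP libraries had no annotation and were given to genes by RefSeq span and strand.

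Reads were summed by gene, divided by the reads in all clusters of the library, and compared as ratios with exact binomial intervals (Python 3.11.15, scipy 1.17.1, bedtools 2.31.1). The T-to-C fraction was used only to describe clusters. AGO2 counts per gene were tested with edgeR 4.0.16 (TMM, quasi-likelihood, Benjamini-Hochberg), with DESeq2 1.42.0 as an alternative. Nothing says that A and B were separate cultures, so the p-values measure only the spread between libraries. Scripts were tested on simulated data. The genes and lists were chosen with earlier results of these data known. Named from each list were the 4 genes with the highest summed shares and the genes called 2-fold. The called genes and ZFP36L2, which was not called, were chosen after their values were seen. Also named were the 2 genes nearest to each member, and up to 3 sites of a member by mean share. Of 37 microRNA names, picked after the data were seen, 34 matched RefSeq. Alternatives were scaling, distinct sequences, cluster and read minimums, 3' UTR reads alone, DESeq2, the replicate block and leaving out libraries.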

Additional observations from a re-analysis of the deposited data

Results flagged for a closer look

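In MCL1, MYC, KLF6 and JUN the share at the high dose of RNase I was below that at the low dose in FUBP3 and above it in KHSRP. The log2 share at 1.5 over 0.15 U/ul was −0.45 in FUBP3 and 0.18 in KHSRP for MCL1, −1.38 and 1.13 for MYC, −0.87 and 1.82 for KLF6, and −1.46 and 0.28 for JUN. The medians over all genes were 0.045 in FUBP3 (quartiles −0.38 and 0.43) and 0.21 in KHSRP (−0.43 and 0.99). How many of all genes moved these opposite ways was not counted. The KHSRP intervals of MCL1 and JUN at these doses overlapped. The high-dose FUBP3 reads of MYC and KLF6 came from only 2 and 5 distinct sequences. With 1 library at each dose the difference was not tested. For fluorescent libraries at 0.5 U/ul over RNase T1 libraries it was −0.021 in FUBP3 and 0.57 in KHSRP for JUN, and −0.40 and 2.31 for CTNNB1. The FUBP3 intervals of the 2 forms overlapped for both mRNAs, and so did the KHSRP intervals of JUN. In the KHSRP T1 library JUN had 13 reads, and CTNNB1 had 5 reads of 2 distinct sequences. These differences were again not tested.

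Reads of the 6 mRNAs also lay in clusters of proteins outside the comparison, which had no control samples. CPSF1, a subunit of the complex that cleaves and polyadenylates pre-mRNA, had 9 reads in VEGFA, 7 in MCL1, 34 in MYC, 5 in KLF6, 6 in JUN and 35 in CTNNB1. U2AF1, the splicing factor of the 3' splice site, had 7 reads in VEGFA, 12 in MYC and 5 in KLF6 at 1.5 U/ml RNase A and T1, after labelling with 250 uM 4-thiouridine for 2 hours.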

How the results depend on the processing

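Ratios of FUBP3 over KHSRP kept their sign under median-of-ratios scaling, and with distinct sequences all but MCL1 at the high dose (−0.40) did. With 3' UTR reads alone these ratios changed sign among those whose interval excluded 0: MCL1 had −0.55 and −0.42 at the low and middle doses, JUN −0.081 at the low dose, and CTNNB1 −0.25 and −0.22 at the middle and high doses. The members' median was then −0.32, −0.25 and −1.75. With clusters of at least 3 distinct sequences MYC at the middle dose was 0.34, MCL1 at the high dose −0.82, and the median was 1.77 and 1.91 at the low and middle doses. MYC and KLF6 then had no FUBP3 reads and no ratio at the high dose. Genes 2-fold higher in FUBP3 at all doses were 28 with distinct sequences, 78 with that cluster minimum, 2 with 3' UTR reads, 5 with at least 50 reads and 408 with no minimum. In KHSRP they were 82 with 3' UTR reads and 140 with at least 50 reads. The 3' UTR share was 65.5% in FUBP3, 58.3% in KHSRP and 69.7% in radiolabelled AGO2 by clusters, and 98.2, 83.4 and 87.0% with at least 3 distinct sequences. The heptamer TATTTAT was in 5.34, 3.33 and 4.95% of the members' clusters of these libraries. The edgeR count for the gel was 53 with no filter, 5 with distinct sequences and 0 to 15 on leaving out a library, with 0 (288 at unadjusted p below 0.05) without library B with the gel and 13, 15 and 8 without the others. DESeq2 called 2. With a replicate block it was 3, and libraries with the same letter share only that letter (correlation of deviations −0.0087). Adjusted p ranged over the alternatives from 0.25 to 0.858 for MCL1, 0.546 to 0.971 for VEGFA, 0.614 to 0.988 for KLF6 and 0.900 to 0.999 for JUN. The causes of these shifts were not tested. Depth limits the shallow libraries: in KHSRP at the high dose the 5 members with a cluster had 16 to 40 reads.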

Other observations

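The share of reads with a T-to-C change was lower in the 6 mRNAs than over all reads in clusters in the RNase I libraries of FUBP3 and KHSRP, and higher in AGO2. It was 66.4, 63.9 and 67.9% in FUBP3 from the low to the high dose, against 83.1, 82.9 and 90.0%, and 71.1, 65.1 and 69.9% in KHSRP, against 73.3, 78.6 and 90.0%. In AGO2 it was 68.0 and 82.0% in the fluorescent libraries at the low and high doses, against 59.97 and 60.3%, 72.9 and 76.7% without the gel, against 72.4 and 66.4%, and 76.9 and 84.6% with it, against 71.5 and 64.9%. A distinct sequence of the members was read 4.55, 4.78 and 6.93 times on average in FUBP3 and 1.95, 2.15 and 3.17 times in KHSRP. These values were not tested.

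Some AGO2 clusters of the members held no match to a listed seed. A JUN site held 45, 29, 8 and 6 reads in the libraries without (A, B) and with (A, B) the gel, and a KLF6 site held 64, 33, 12 and 8. An MCL1 cluster over the stop codon (8 reads at 1.5 U/ul) matched the seed of miR-92a.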
